A study of Mus musculus with 16 samples.

Results

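Intergenic RNA probes are here array probes named for a stretch of the genome and not for a gene. The results below describe those downstream of a probe of a protein-coding gene, in RAW 264.7 cells, a tumour-derived mouse macrophage-like line. A probe was taken when its name on the array was a genomic stretch and its strand letter, and when at least 1 probe with an NM_ accession, which marks a RefSeq mRNA, lay on the same strand within 20 kb upstream. Of 55681 probes other than controls, 16181 were intergenic by name, 16063 of these had a position, and 2815 met the rule. The 2815 probes lie in 861 named stretches downstream of 569 neighbour genes, so many share a stretch or a neighbour and are not independent of each other. The neighbour of a probe is the gene of its nearest upstream NM_ probe, and distance was measured between the midpoints of these probes, not from the end of the gene. Of the 2815, 110 had a further probe of their neighbour downstream of them and 14 overlapped the neighbour's probe, so some lie within genes.

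Cells received the vehicle DMSO or 20 µM cordycepin for 120 min. LPS, a bacterial cell wall component that activates macrophages, was given to some wells at 1 µg/ml for the last 60 min. The 4 conditions are DMSO, cordycepin, LPS+DMSO and LPS+cordycepin, with 4 arrays each and 16 arrays in all, and the protocol puts the 4 conditions in wells of 1 plate, with each replicate collected on a day of its own. All conditions share the low serum medium in which the cells were held before and during the treatment, and all come from a single line. The 8 macrophage markers examined, Cd14, Cd68, Csf1r, Itgam, Adgre1, Lyz2, Spi1 and Ptprc, were above background on all 16 arrays. Of 17 markers of other cell types, 8 were above background on no array, among them Cdh1 and Pdgfra, and 3 (Cd3e, Cd4 and Kdr) were above background on all 16.

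The RNA of most protein-coding genes is cut at a polyadenylation site near the end of the last exon, and a poly(A) tail is added to the new end. The polymerase runs on past this site, and the RNA it makes downstream is normally degraded while transcription terminates. Cordycepin is an adenosine analogue that blocks the extension of poly(A) tails, and stress or impaired 3' processing are known to leave long transcripts downstream of genes.

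The probes that the results turn on are given here as the array files print them, 60 bases each, with mm9 coordinates and strand. The first group lies downstream of Btg2, which encodes an antiproliferative protein that binds the CCR4-NOT deadenylase, and rose in LPS+cordycepin alone.
A_30_P01027147, Btg2, chr1:135956757-135956816, minus strand: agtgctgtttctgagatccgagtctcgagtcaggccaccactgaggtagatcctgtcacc
A_30_P01029732, Btg2, chr1:135956697-135956756, minus strand: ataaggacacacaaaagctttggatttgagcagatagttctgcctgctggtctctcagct
A_30_P01028465, Btg2, chr1:135956619-135956678, minus strand: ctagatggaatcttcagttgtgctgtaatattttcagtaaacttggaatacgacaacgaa

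The next group holds probes that rose with cordycepin, with or without LPS. Nucks1 encodes a nuclear protein of DNA repair, Btg1 a relative of Btg2, Hnrnpr an RNA-binding protein, Rbpj the transcription factor of the Notch pathway, Ywhag a 14-3-3 protein, Srsf1 a splicing factor and Rps20 a protein of the small ribosomal subunit.
A_30_P01024020, Nucks1, chr1:133839635-133839694, plus strand: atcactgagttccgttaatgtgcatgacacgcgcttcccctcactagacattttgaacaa
A_30_P01033073, Nucks1, chr1:133839695-133839754, plus strand: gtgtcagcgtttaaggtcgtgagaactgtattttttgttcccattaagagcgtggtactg
A_30_P01027893, Btg1, chr10:96098468-96098527, plus strand: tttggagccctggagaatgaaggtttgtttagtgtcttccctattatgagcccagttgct
A_30_P01030677, Hnrnpr, chr4:135915135-135915194, plus strand: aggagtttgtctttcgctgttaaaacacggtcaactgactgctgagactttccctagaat
A_30_P01032455, Rbpj, chr5:54054055-54054114, plus strand: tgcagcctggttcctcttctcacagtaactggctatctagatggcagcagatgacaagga
A_30_P01029259, Ywhag, chr5:136371954-136372013, minus strand: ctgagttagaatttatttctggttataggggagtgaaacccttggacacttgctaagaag
A_30_P01022597, Srsf1, chr11:87880719-87880778, plus strand: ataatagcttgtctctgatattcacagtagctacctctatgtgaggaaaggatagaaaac
A_30_P01022565, Rps20, chr4:3752764-3752823, minus strand: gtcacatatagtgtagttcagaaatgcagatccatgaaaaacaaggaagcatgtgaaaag

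Probes near Plekho2, which encodes a pleckstrin homology domain protein, and near Mrpl39, which encodes a mitochondrial ribosomal protein, are shown because they gave the largest rises with LPS among the probes absent from DMSO.
A_30_P01024094, Plekho2, chr9:65384078-65384137, minus strand: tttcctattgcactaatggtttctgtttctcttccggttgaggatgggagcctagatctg
A_30_P01017643, Mrpl39, chr16:84705907-84705966, minus strand: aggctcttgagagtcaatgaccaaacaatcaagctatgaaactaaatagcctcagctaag

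A last group of 3 raised probes holds the hexamer AATAAA, in capitals, the common polyadenylation signal. They are the raised probes with this hexamer and the largest change in LPS+cordycepin, 1 per neighbour, chosen after their values were seen. Eef1g encodes a translation elongation factor and Tcf12 a transcription factor.
A_30_P01032137, Rps20, chr4:3752670-3752729, minus strand: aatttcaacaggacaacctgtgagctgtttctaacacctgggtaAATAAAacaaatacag
A_30_P01028850, Eef1g, chr19:9060792-9060851, plus strand: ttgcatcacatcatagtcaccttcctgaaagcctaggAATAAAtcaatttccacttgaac
A_30_P01032252, Tcf12, chr9:71688161-71688220, minus strand: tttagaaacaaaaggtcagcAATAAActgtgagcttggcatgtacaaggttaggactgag

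The array software marks a spot as well above background when its signal clearly exceeds the local background. Across the 4 replicates, 628, 639, 1156 and 1149 of the 2815 probes were so marked in DMSO, and 1073, 836, 1514 and 1390 in cordycepin. In LPS+DMSO the numbers were 737, 604, 1093 and 1030, and in LPS+cordycepin they were 743, 944, 1228 and 1533. On each of the 4 replicate numbers the cordycepin array thus had more of these probes above background than the array of its vehicle control, with the smallest gain between LPS+DMSO and LPS+cordycepin on replicate 1. Replicates 1 and 2 were hybridised on slide 1 and replicates 3 and 4 on slide 2, where all conditions had more probes above background, and each slide held all 4 conditions equally. The mean share was 31.7% for DMSO arrays, 42.7% for cordycepin, 30.8% for LPS+DMSO and 39.5% for LPS+cordycepin. Among the 13248 intergenic probes with no NM_ probe within 20 kb upstream, the corresponding means were 22.5%, 25.6%, 21.8% and 22.7%.

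**Figure D1:**
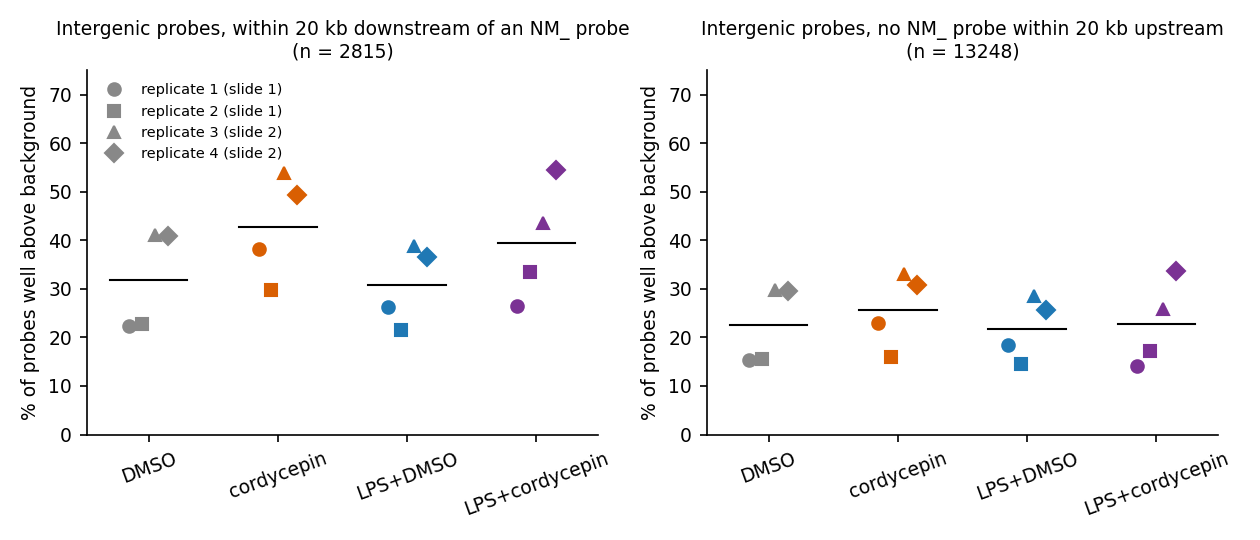
Share of intergenic probes well above background on each array (vertical axis, percent) by condition, for the 2815 probes within 20 kb downstream of an NM_ probe (left) and the 13248 without one (right). Symbols mark the replicates and their slide, and horizontal lines the condition means. On the left the means are 31.7%, 42.7%, 30.8% and 39.5% in the order plotted, and slide 2 lies above slide 1 in every condition.

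Signals are given as the scaled log2 signal, which is the log2 of the processed spot intensity after all arrays were set to the same 75th percentile. A log2 difference of 1 is 2-fold. Testing needed at least 1 condition in which the probe cleared the background on all 4 arrays, which left 21597 probes, among them 877 of the 2815, in 398 stretches next to 296 neighbours. It was said to have risen or fallen, and is then named as called, with a change of at least 2-fold and an adjusted p under 0.05 (limma, Benjamini-Hochberg over all probes tested). Of the 2815 probes, 937 were above background on no array, and 482 were above background on all 16. Another 256 of the 877 passed only through 1 or both of the cordycepin conditions and 32 only through 1 or both of the DMSO conditions, so counts are also given without the filter and within the 482.

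With cordycepin alone, 267 of the 877 probes rose and 2 fell against DMSO, or 30.4% and 0.228%, where 5.55% and 1.08% of all probes tested rose and fell. With cordycepin under LPS, 309 rose and 10 fell against LPS+DMSO, or 35.2% and 1.14%, where the background was 7.11% and 1.61%. The median log2 change was 0.30 and 0.40, beside 0.04 and 0.03 over all probes tested. Both comparisons have their own vehicle arrays. Of the probes that rose, 247 did so in both comparisons and 329 in at least 1, in 158 stretches downstream of 117 neighbours. Taking each culture day by itself, the median change was 0.34 ± 0.05 (SD, n = 4 days) with cordycepin alone and 0.51 ± 0.14 under LPS, and the 8 day values ran from 0.28 to 0.68. These medians are over the 877 tested probes. Over all 2815 the days did not share a sign, with -0.19, -0.03, 0.28 and 0.52 for replicates 1 to 4 with cordycepin (0.15 ± 0.32) and 0.54, -0.26, 0.62 and 0.56 under LPS (0.36 ± 0.42). Nor did they over all 55681 probes, with -0.34, -0.05, 0.04 and 0.44 with cordycepin and 0.43, -0.31, 0.40 and -0.05 under LPS. On each day the median of the 2815 lay above that of all probes.

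The probes were also raised in counts that do not rest on the filter. With no filter on dim probes, 338 of all 2815 rose with cordycepin (12%, against 2.58% of all probes) and 432 with cordycepin under LPS (15.3%, against 3.7%). Among the 482 above background on all 16 arrays, 54 (11.2%) and 80 (16.6%) rose, beside 2.04% and 3.01% of all probes with that property. The count of raised probes was lower with background-corrected values to which an offset was added, where 111 and 131 were called in either direction, and in the deposited value table, where 170 and 196 were called, than the 269 and 319 called here, for which the background was 6.64% and 8.72%.

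Other groups of probes are given beside these. Of 2248 tested intergenic probes without an NM_ probe within 20 kb upstream, 251 (11.2%) rose with cordycepin and 347 (15.4%) with cordycepin under LPS. On the strand opposite to the gene, in the same named stretches, 50 of 243 tested probes (20.6%) rose with cordycepin and 63 (25.9%) under LPS. Without the filter these opposite-strand shares were 3.39% and 5.46%, beside 12% and 15.3% on the gene's own strand. Of 14309 tested NM_ probes, 421 (2.94%) and 513 (3.59%) rose. These shares are given as descriptions, since neighbouring probes are not independent, and the differences between groups of probes were not tested.

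In a lysate of many cells, a larger share of cells that carry an RNA cannot be told apart from more of it per cell. A single probe does not show where its RNA begins or ends, and a probe that rose need not belong to the transcript of its neighbour. The labelling kit primes from oligo(dT), so the signal also depends on stretches of A in the RNA, and the part of this was not tested directly. A run of AAAAAA stood in 2.42% of the 2815 probes, in 3.65% of the 329 that rose in at least 1 comparison, and in 4.01% of the tested probes that rose in neither.

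Among the tested probes within 20 kb, the share raised was lowest next to the gene. Up to 2 kb from the neighbour's probe, 8 of 117 tested probes (6.84%) rose with cordycepin and 10 (8.55%) with cordycepin under LPS. From 2 to 5 kb the shares were 24.0% and 33.1% (42 and 58 of 175), from 5 to 10 kb 36.9% and 41.2% (103 and 115 of 279), and from 10 to 20 kb 37.3% and 41.2% (114 and 126 of 306). Beyond the 20 kb of the rule the shares were lower with distance, with 21.7% and 28.0% from 20 to 30 kb, 14.7% and 18.7% from 30 to 50 kb, 10.6% and 16.4% from 50 to 100 kb, and 9.24% and 12.7% beyond 100 kb. The limit of 20 kb cut through this gradient: the last probe inside, at 19985 bases, changed by -0.52 and 0.00 on the log2 scale, and the first outside, at 20043 bases, by 0.90 and 1.46.

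Probes near the gene are also more often above background without the drug. Of all probes up to 2 kb, 37.8% were above background on all 4 DMSO arrays, against 21.9%, 20.5% and 14.9% in the 3 further classes. Within the probes above background on all 16 arrays, the shares raised by cordycepin were 0% of 83, 6.19% of 97, 15.5% of 142 and 16.2% of 160 from the nearest to the furthest class. Under LPS these shares were 3.61%, 19.6%, 18.3% and 20.0%. Without the filter, over all probes of each class, they were 3.86%, 11.4%, 15.1% and 12% with cordycepin and 6.18%, 15.5%, 18.2% and 15.4% under LPS. Beyond 20 kb the shares without the filter were 7.15% and 9.46% from 20 to 30 kb, 2.77% and 5.07% from 30 to 50 kb, 1.89% and 3.44% from 50 to 100 kb, and 1.84% and 2.84% beyond 100 kb, so that from 30 kb on they lay below the share next to the gene.

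**Figure D2:**
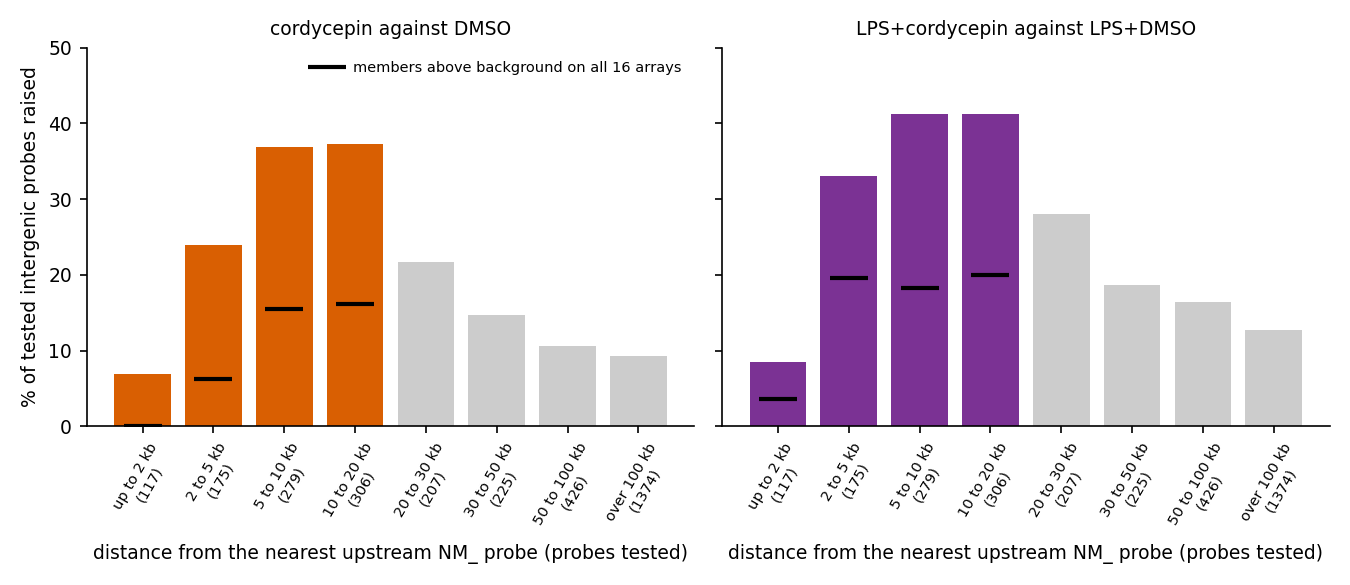
Share of tested intergenic probes raised (bars, percent) by distance from the nearest upstream NM_ probe, with the number tested in brackets, for cordycepin against DMSO (left) and LPS+cordycepin against LPS+DMSO (right). Coloured bars are the probes within 20 kb and grey bars those beyond, and black dashes give the share among probes above background on all 16 arrays. With cordycepin the coloured bars stand at 6.84%, 24.0%, 36.9% and 37.3%.

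Some neighbours have further probes of their own downstream of the intergenic probe, so that the probe lies inside the stretch the array assigns to the gene. None of the 67 tested probes of this kind rose with cordycepin and 6 (8.96%) rose with cordycepin under LPS. Of the 810 that lay beyond every probe of their neighbour, 267 (33.0%) and 303 (37.4%) rose. Over all probes tested 5.55% and 7.11% rose, so the share of the 67 under LPS was near that of all probes. Probes of 1 stretch tended to be called together. Of 223 stretches with at least 2 tested probes, all rose with cordycepin in 57, some in 37 and none in 129, and under LPS the numbers were 73, 33 and 117. The same counts were not made for other intergenic probes, so they do not show a trait of this set.

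The shares also varied with the neighbour's own level. Among tested probes whose neighbour was itself tested, in terciles of the neighbour's mean level over all arrays, 25.6% of 258 rose with cordycepin in the lowest, 35.8% of 243 in the middle and 41.8% of 251 in the highest. Under LPS the shares were 29.1%, 46.5% and 41.0%. Where the neighbour's probe did not reach the level needed for testing, 7.2% of 125 rose with cordycepin and 14.4% under LPS.

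Few of the neighbours' own mRNA probes were called, at shares near those of all NM_ probes. Of 251 tested neighbour probes, 5 rose and 3 fell with cordycepin (1.99% and 1.2%), with a median log2 change of -0.05. With cordycepin under LPS, 7 rose and 4 fell (2.79% and 1.59%), with a median of -0.01. Of all 14309 tested NM_ probes, 2.94% rose and 1.26% fell with cordycepin, and 3.59% and 1.81% with cordycepin under LPS. For the 94 neighbours next to a probe that rose with cordycepin the median was -0.07, with 2 raised and 2 lowered. For the 104 next to a probe that rose under LPS it was -0.06, with 3 raised and 3 lowered.

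**Figure D3:**
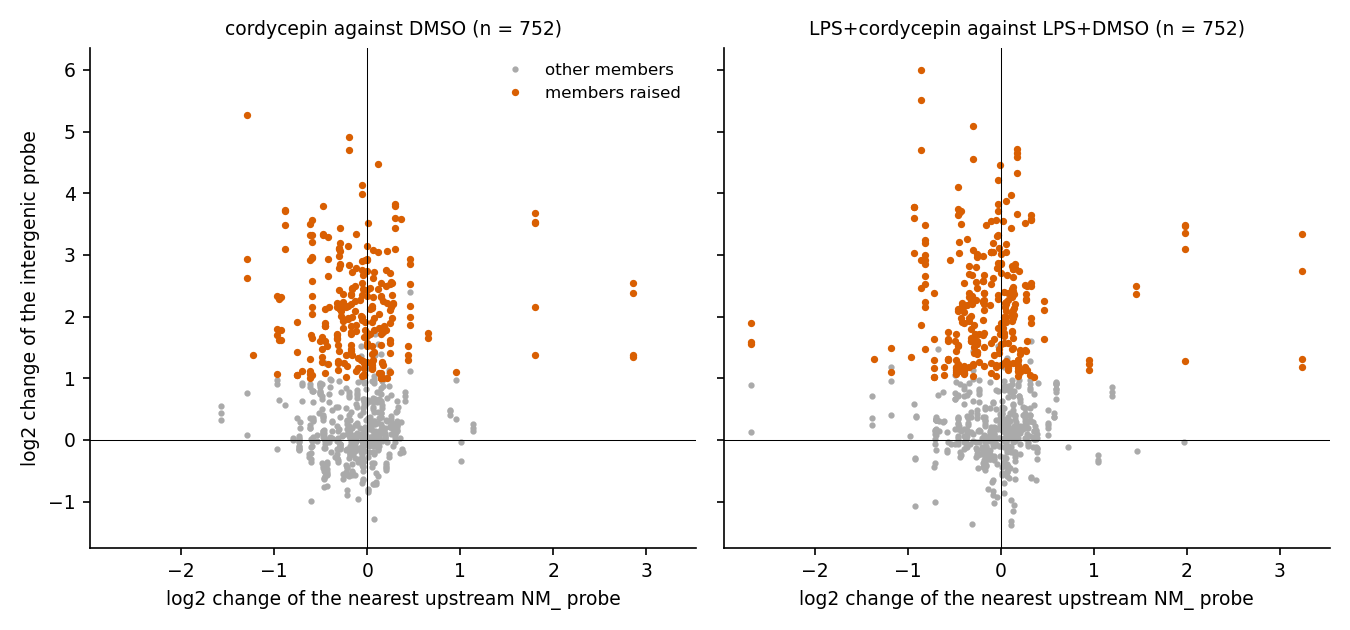
Log2 change of each tested intergenic probe (vertical axis) against that of its nearest upstream NM_ probe (horizontal axis), for cordycepin against DMSO (left) and LPS+cordycepin against LPS+DMSO (right). Orange points are intergenic probes that rose. Most orange points lie near 0 on the horizontal axis, where the neighbours of raised probes had medians of -0.07 and -0.06.

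The 5 tested probes downstream of Nucks1 all rose in both comparisons, by 3.10 to 3.83 with cordycepin. Probe A_30_P01024020, 11 kb from the mRNA probe, read 7.26, 7.52, 7.55 and 7.38 in DMSO and 10.61, 10.68, 11.10 and 11.02 in cordycepin. It read 6.30, 6.53, 6.56 and 6.35 in LPS+DMSO and 10.64, 10.95, 11.35 and 11.16 in LPS+cordycepin. All 8 cordycepin arrays lay above all 8 others, and all 4 LPS+DMSO arrays below all 4 DMSO arrays. The log2 change was 3.43 ± 0.15 (SE; adjusted p = 1.55e-09, limma) with cordycepin and 4.59 ± 0.15 (adjusted p = 1.65e-10) under LPS. The Nucks1 mRNA probe changed by 0.30 and 0.18, and neither change passed the test.

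Downstream of Btg1 all 5 tested probes rose in both comparisons. Probe A_30_P01027893, 13.1 kb away, read 7.48, 6.83, 7.61 and 7.53 in DMSO and 10.58, 10.84, 11.26 and 10.88 in cordycepin. It read 7.04, 7.34, 7.37 and 7.54 in LPS+DMSO and 10.53, 10.57, 11.17 and 10.96 in LPS+cordycepin. The groups with and without cordycepin did not overlap, and the changes were 3.53 ± 0.20 (adjusted p = 8.74e-09, limma) and 3.49 ± 0.20 (adjusted p = 7.8e-09). The NM_ probes of Btg1 disagreed with each other. The nearest one changed by 1.80 and 1.98, whereas the other, further upstream, changed by -1.0 and -2.69.

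Downstream of Hnrnpr, 6 of 8 tested probes rose with cordycepin and 7 under LPS. Probe A_30_P01030677, 13.3 kb away, read 7.69, 7.87, 8.22 and 8.4 in DMSO and 10.57, 10.80, 11.16 and 11.04 in cordycepin. It read 7.23, 6.99, 7.54 and 7.56 in LPS+DMSO and 10.55, 10.91, 11.05 and 11.12 in LPS+cordycepin. Again all cordycepin arrays lay above all others, with changes of 2.85 ± 0.19 and 3.58 ± 0.19 (adjusted p = 4.73e-08 and 3.99e-09, limma). The Hnrnpr mRNA probe changed by 0.46 and 0.32, and neither passed the test. A probe of the cDNA 9130020K20Rik lies on the same strand between Hnrnpr and this probe, 9244 bases from the latter, and changed by 1.58 and 2.07.

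All 6 tested probes downstream of Rbpj rose in both comparisons. Probe A_30_P01032455, 5.55 kb away, read 6.78, 7.71, 6.84 and 7.21 in DMSO, 10.16, 10.21, 10.48 and 10.44 in cordycepin, 7.63, 7.45, 7.82 and 8.28 in LPS+DMSO, and 9.74, 9.90, 10.21 and 10.16 in LPS+cordycepin. The groups with and without cordycepin were separate. The change was 3.19 ± 0.21 with cordycepin and 2.21 ± 0.21 under LPS (adjusted p = 3.87e-08 and 1.05e-06, limma), while the Rbpj mRNA probe changed by -0.29 and -0.18.

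**Figure D4:**
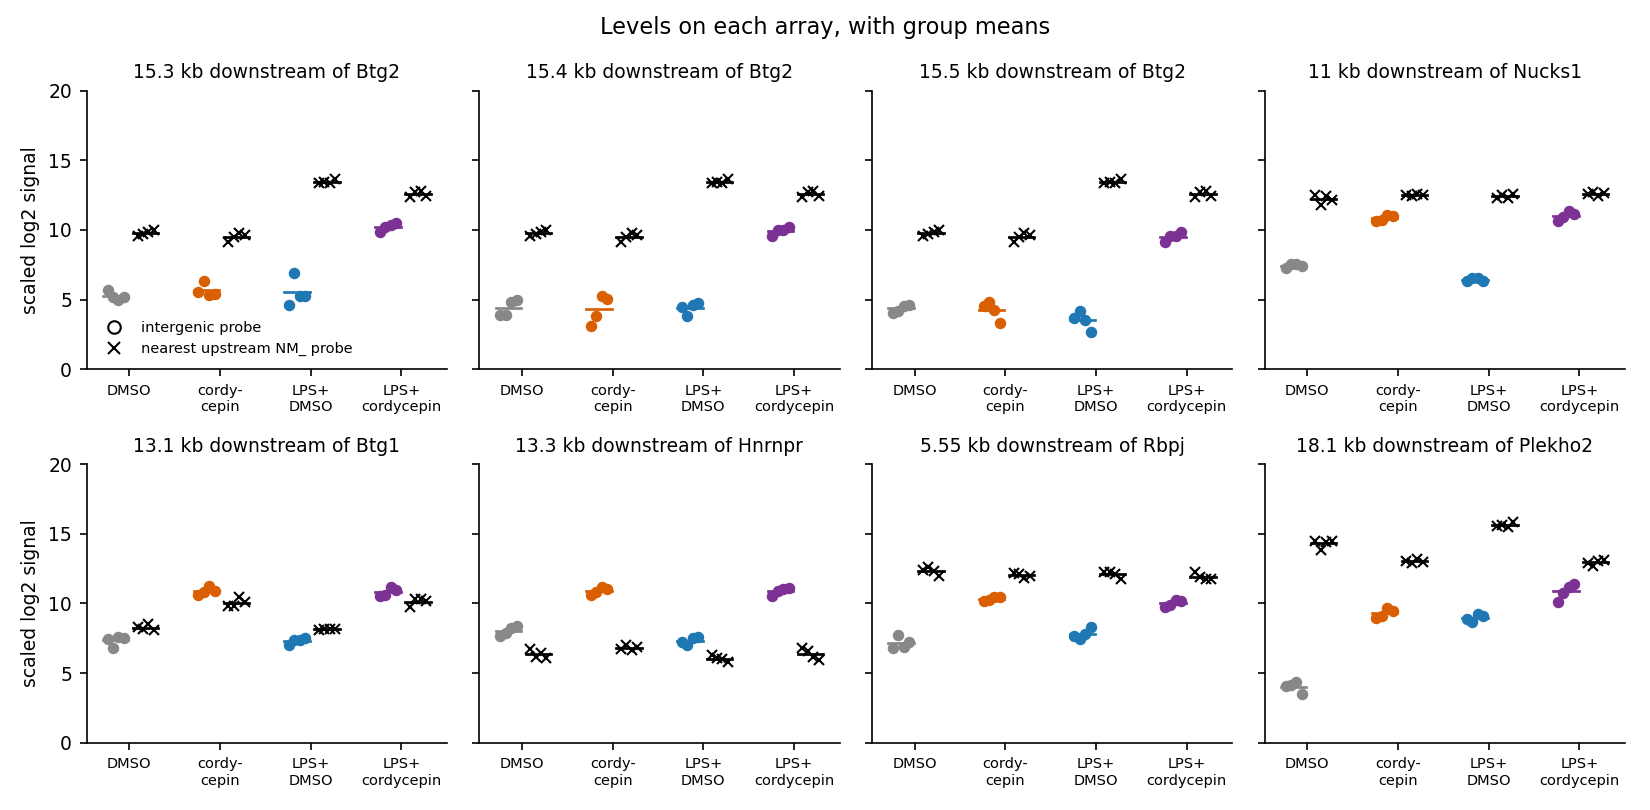
Scaled log2 signal (vertical axis) of 8 intergenic probes (coloured circles) and of their nearest upstream NM_ probes (black crosses) on each of the 16 arrays, with group means as lines. Levels of different probes are not comparable, only the conditions within a probe. The 3 probes downstream of Btg2 are high in LPS+cordycepin, and those of Nucks1, Btg1, Hnrnpr and Rbpj are high in both cordycepin conditions.

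Several raised probes were not above background on any array of the vehicle group and on all 4 arrays of the cordycepin group. For these a bound is given: the mean of the bright group against the lowest signal at which a probe was still well above background on the arrays of the dim group, or the dim probe's own signal where that was higher. Ranges of log2 changes over several probes, here and elsewhere, use the measured signal of dim probes and are not bounds. There were 51 such probes with cordycepin and 41 under LPS, and no probe with the reverse pattern. Such a probe can pass the filter through the group in which it is high. The same counts were not made over all probes tested, so these numbers do not show a trait of this set. Probe A_30_P01029259, 12.6 kb downstream of Ywhag, read 3.99, 4.04, 3.21 and 4.14 in DMSO, 8.31, 8.45, 9.29 and 8.96 in cordycepin, 4.80, 3.91, 4.53 and 5.76 in LPS+DMSO, and 9.19, 9.41, 10.32 and 10.44 in LPS+cordycepin. It was at least 12.9-fold higher with cordycepin than with DMSO (adjusted p = 2.2e-07, limma), while the Ywhag mRNA probe changed by -0.20.

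A probe 13.6 kb downstream of Srsf1, A_30_P01022597, read 4.02, 4.97, 3.14 and 2.45 in DMSO and 7.92, 7.89, 8.63 and 8.07 in cordycepin. It read 3.67, 3.96, 4.61 and 4.12 in LPS+DMSO and 8.22, 8.54, 8.70 and 8.71 in LPS+cordycepin. The vehicle arrays all lay below the cordycepin arrays, and the bounds were at least 8.32-fold with cordycepin and at least 9.9-fold under LPS. The other tested Srsf1 probe, A_30_P01022796, also at 13.6 kb, was not called, with changes of 0.27 and 0.42.

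All 7 tested probes downstream of Rps20 rose in both comparisons, from 5.15 to 12 kb. Probe A_30_P01022565, 8.86 kb away, read 4.09, 4.10, 2.53 and 4.18 in DMSO, 7.55, 7.34, 8.20 and 7.79 in cordycepin, 4.59, 4.01, 4.22 and 4.63 in LPS+DMSO, and 7.75, 8.03, 8.51 and 8.43 in LPS+cordycepin. It was at least 6.28-fold and 7.83-fold higher in the cordycepin groups. The Rps20 mRNA probe had means of 18.27 ± 0.12, 18.21 ± 0.10, 18.18 ± 0.11 and 18.15 ± 0.12 (SD, n = 4) in DMSO, cordycepin, LPS+DMSO and LPS+cordycepin, differences within its spread.

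Other neighbours with many raised probes were Nop58, a nucleolar protein of snoRNA particles, with 8 of 8 tested probes raised in both comparisons, and Fbrs, with 7 and 8 of 8. The Fbrs mRNA probe changed by -0.59 with cordycepin and -0.81 under LPS, both under 2-fold, while probe A_30_P01020532, 17.0 kb away, rose by 2.57 ± 0.26 and 2.91 ± 0.26. Downstream of Man1a2, which encodes a mannosidase of glycoprotein processing, all 6 tested probes rose with cordycepin under LPS, by 1.07 to 1.20. With cordycepin alone they changed by 0.74 to 0.92, under 2-fold, and none was called in the interaction.

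The position of the rise within a locus could be followed where a neighbour had many tested probes. Ube3a, a ubiquitin ligase, had 14. The 11 probes from 2.08 to 3.77 kb changed by -0.42 to 0.40 with cordycepin and none was called. The other 3, at 15.3 and 15.4 kb, were above background on no array without cordycepin and on all arrays with it. They were at least 3.03-fold, 4.16-fold and 7.29-fold higher with cordycepin than with DMSO, and at least 2.84-fold, 3.84-fold and 5.95-fold higher with cordycepin under LPS.

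Mdm4, an inhibitor of p53, had 9 tested probes. The nearest at 2.91 and 3.08 kb changed by -0.55 and -0.63 with cordycepin, and the 7 from 5.01 to 10.9 kb changed by 1.24 to 2.37, of which 6 were called. Under LPS these 7 all rose, by 1.70 to 2.99. The Mdm4 mRNA probe changed by -0.26 and -0.19.

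Safb2, a nuclear scaffold protein, had 9 tested probes between 10.2 and 11.5 kb. With cordycepin 6 rose, and 3 rose with cordycepin under LPS. The probes at 10.4 and 10.6 kb, between raised ones, changed by 0.02 and 0.00 with cordycepin. With LPS alone, the probes at 11.2 and 11.5 kb rose, by 1.03 to 1.85. Neighbours with many tested probes and none raised in either cordycepin comparison included Crebrf (12 probes), Ifi207 (11) and Zfp652 (10), and Pura had 3 raised with cordycepin and 1 under LPS of 12. All Ifi207 probes but the furthest, at 15.5 kb, lay inside the stretch the array assigns to Ifi207, with a further Ifi207 probe downstream.

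**Figure D5:**
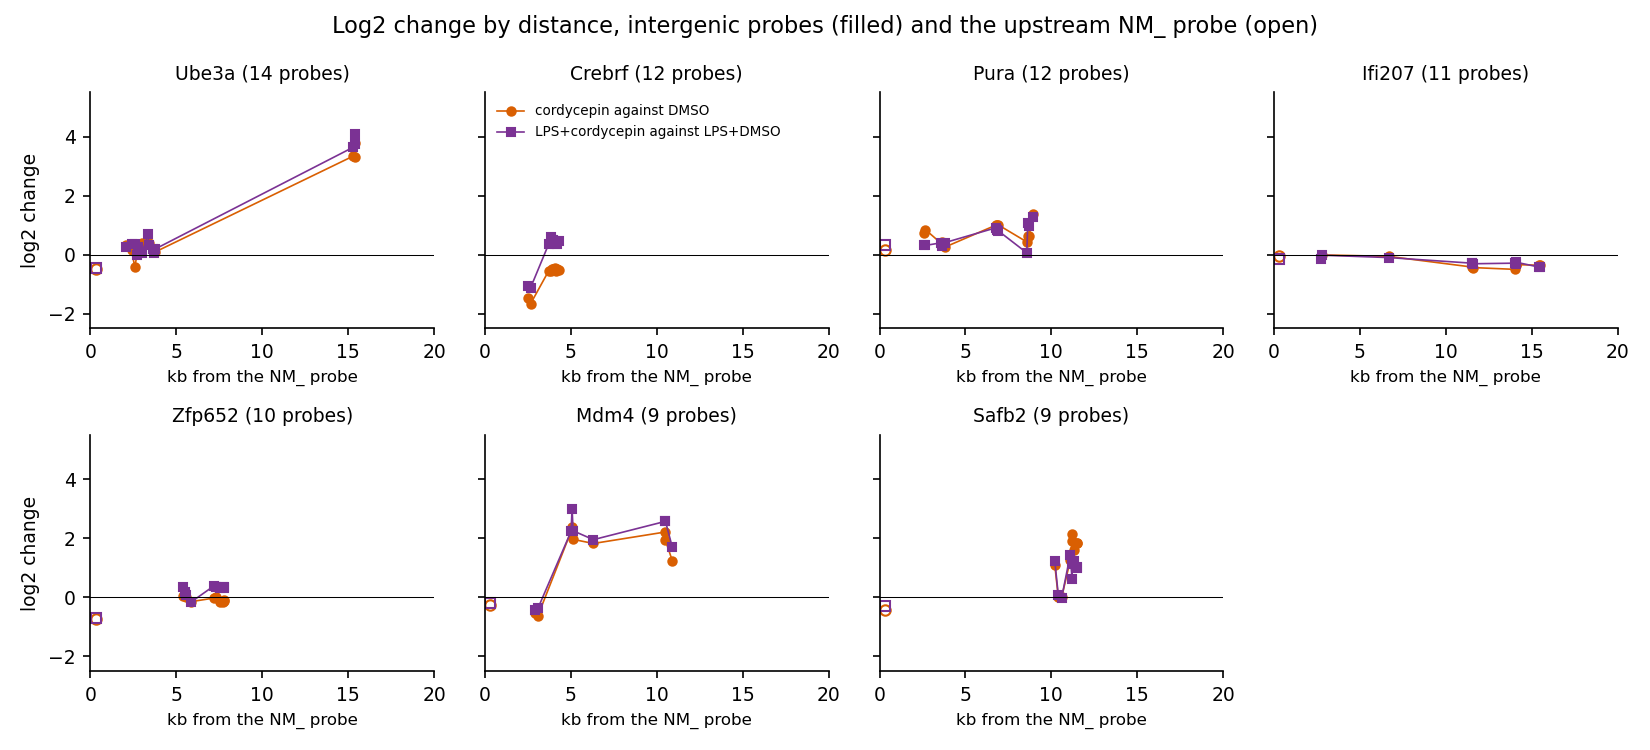
Log2 change (vertical axis) of tested intergenic probes by distance in kb from the nearest upstream NM_ probe (horizontal axis) for 7 of the 8 neighbours with the most tested probes, with cordycepin against DMSO (circles) and LPS+cordycepin against LPS+DMSO (squares). Open symbols at the left are the neighbour's own probe. The Ifi207 probes, all but the furthest, lie inside the stretch the array assigns to that gene. For Ube3a the 11 probes up to 3.77 kb lie between -0.42 and 0.40 with cordycepin and the 3 at 15.3 to 15.4 kb above 3.

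Few probes fell with cordycepin. Probe A_30_P01026788, 2.65 kb downstream of Crebrf, read 7.66, 9.15, 8.38 and 8.18 in DMSO and 6.75, 6.60, 6.61 and 6.72 in cordycepin, a change of -1.67 ± 0.23 (adjusted p = 6.69e-05, limma), and -1.13 ± 0.23 under LPS. Under LPS, A_30_P01025818, 16.7 kb downstream of Frmd8, which rose with LPS alone, fell by 1.38 on the log2 scale with cordycepin. Neat1, the long noncoding RNA of paraspeckles, is probed between Frmd8 and this probe, and its probe changed by -1.26 in the same comparison. A_30_P01017723, 19.6 kb downstream of the heat shock gene Hspa1a, fell by 1.23. The Hspa1a mRNA probe itself was above background on no array. A probe of the noncoding transcript 1110038B12Rik lies 282 bases further along the same strand and changed by -0.35. A_30_P01028447, downstream of a probe of the zinc finger gene Zfp955b, fell by 1.02. The Zfp955b probe upstream of it changed by -0.07. Another Zfp955b mRNA probe, whose midpoint coincides with that of A_30_P01028447, changed by -0.96, so A_30_P01028447 lies at that gene's own mRNA probe.

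With LPS alone, 24 of the 877 probes rose and 49 fell against DMSO, or 2.74% and 5.59%, where 2.15% and 2.71% of all probes tested rose and fell, or 73 called in all against a background of 4.86%. The split moved with the scaling of the arrays: 31 rose and 29 fell after quantile normalization, 34 and 36 when the percentile was taken over all probes, 17 and 6 in the deposited value table, and 11 and 1 with the offset background correction. The median change was -0.12, beside -0.04 over all probes. This comparison shares its DMSO arrays with cordycepin against DMSO and its LPS+DMSO arrays with LPS+cordycepin against LPS+DMSO, so the values are given side by side only. Of the 24 raised, 20 lay 10 to 20 kb from their neighbour.

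The largest rises with LPS were downstream of Mrpl39. Probe A_30_P01017643, 12.1 kb away, read 4.80, 4.02, 4.46 and 4.48 in DMSO, 5.29, 5.73, 5.87 and 5.32 in cordycepin, 9.92, 10.08, 9.92 and 10.30 in LPS+DMSO, and 9.60, 9.33, 9.87 and 10.04 in LPS+cordycepin. It was at least 31.7-fold higher in LPS+DMSO than in DMSO (adjusted p = 2.82e-11, limma), and A_30_P01020928, another probe there, was at least 24.2-fold higher. The remaining tested probe, A_30_P01018526, above background on 1 of the 4 DMSO arrays, rose by 4.68. The Mrpl39 mRNA probe changed by 0.41, which did not pass the test. On the opposite strand, 7 intergenic probes within a few kb of this site also rose with LPS, by 3.50 to 6.13, and none was called with cordycepin under LPS (-0.60 to -0.22). In the RefSeq gene order, Mir155 and its host transcript Mir155hg, known for their induction in activated macrophages, lie next to Mrpl39. These opposite-strand probes were examined after the Mrpl39 values were seen.

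Downstream of 4930562C15Rik, probe A_30_P01019478, 1.46 kb away, read 6.60, 6.87, 7.02 and 7.24 in DMSO and 11.19, 10.70, 11.22 and 11.15 in LPS+DMSO. It read 6.74, 6.88, 7.09 and 7.05 in cordycepin and 9.35, 8.74, 9.57 and 9.69 in LPS+cordycepin. It rose by 4.13 ± 0.19 with LPS, and fell by 1.72 on the log2 scale with cordycepin under LPS. Cordycepin alone left it within the range of the DMSO arrays. The 4930562C15Rik mRNA probe was above background on no array and was not tested.

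Plekho2 had probes that rose with LPS and with cordycepin. Probe A_30_P01024094, 18.1 kb away, read 4.09, 4.11, 4.34 and 3.50 in DMSO, 8.93, 9.08, 9.66 and 9.47 in cordycepin, 8.89, 8.64, 9.21 and 9.08 in LPS+DMSO, and 10.13, 10.75, 11.18 and 11.37 in LPS+cordycepin. All DMSO arrays lay below all others. The bounds were at least 14.8-fold with LPS and at least 18.6-fold with cordycepin, and cordycepin under LPS added 1.90 on the log2 scale (adjusted p = 3.82e-05, limma). The nearest Plekho2 mRNA probe rose by 1.32 with LPS and changed by -1.29 with cordycepin and -2.68 with cordycepin under LPS, past the threshold each time. The probes of Plekho2 disagreed with each other, since A_55_P2076605, a cDNA probe nearer to the intergenic one, rose by 1.55 with LPS and by 1.22 with cordycepin, and changed by 0.77 with cordycepin under LPS. Of the other 4 tested probes there, A_30_P01019072 and A_30_P01020903 rose in all 3 comparisons, and the remaining pair were called in none.

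Erbin, which encodes a scaffold protein of cell membranes, had a similar group. Probe A_30_P01032259, 11.7 kb away, read 4.43, 5.10, 4.58 and 4.62 in DMSO, 6.76, 7.02, 7.41 and 7.36 in cordycepin, 6.91, 6.81, 7.02 and 7.17 in LPS+DMSO, and 8.48, 9.05, 9.40 and 9.70 in LPS+cordycepin. All DMSO arrays lay below all others. The probe was at least 3.61-fold higher with LPS and at least 4.04-fold higher with cordycepin than with DMSO, and it rose by 2.18 ± 0.23 with cordycepin under LPS. The Erbin mRNA probe changed by 0.45 with LPS, -0.16 with cordycepin and -0.39 with cordycepin under LPS.

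The largest falls with LPS included Hoxb5 and Topors. Probe A_30_P01019818, 8.84 kb downstream of the homeobox gene Hoxb5, read 8.18, 8.74, 8.47 and 8.43 in DMSO, 8.48, 8.53, 8.72 and 8.64 in cordycepin, 6.62, 6.78, 6.5 and 6.22 in LPS+DMSO, and 7.40, 7.47, 7.43 and 7.25 in LPS+cordycepin. No LPS+DMSO array overlapped with the other conditions. All 3 tested Hoxb5 probes fell with LPS, by 1.82 to 2.12 on the log2 scale, and the Hoxb5 mRNA probe fell by 1.25. Probe A_30_P01017519, 4.36 kb downstream of Topors, an E3 ligase, read 7.60, 8.0, 7.61 and 7.46 in DMSO and 6.12, 6.24, 6.52 and 6.44 in LPS+DMSO, a change of -1.34 ± 0.15 (adjusted p = 1.4e-05, limma). With cordycepin it rose to 8.82, 8.84, 9.09 and 9.30, and with cordycepin under LPS to 8.58, 8.51, 8.61 and 9.0, all above the arrays without the drug.

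Members grouped by the LPS response of the neighbour are few at both ends. Next to the 7 neighbours whose mRNA probe rose with LPS were 19 tested probes, of which 3 rose with LPS, 4 with cordycepin and 11 with cordycepin under LPS. The 3 were all at Plekho2, the 4 at Plekho2 and 4930453N24Rik, and the 11 at Plekho2, 4930453N24Rik and Btg2. Next to the 7 neighbours that fell with LPS were 21, of which 7 fell with LPS, 8 rose with cordycepin and 11 rose with cordycepin under LPS. The 8 were all at Rab25 and Irf2bp2. Next to the 232 neighbours called neither way were 712, of which 20 rose and 34 fell with LPS, 246 rose with cordycepin and 269 rose with cordycepin under LPS. Over all probes tested, 2.15% rose and 2.71% fell with LPS, 5.55% rose with cordycepin and 7.11% rose with cordycepin under LPS.

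Btg2 had the largest rise with LPS among the neighbours, and its probes showed a pattern of their own. Probe A_30_P01027147, 15.3 kb away, read 5.69, 5.22, 4.98 and 5.21 in DMSO, 5.54, 6.35, 5.34 and 5.38 in cordycepin, 4.63, 6.88, 5.29 and 5.26 in LPS+DMSO, and 9.88, 10.21, 10.33 and 10.46 in LPS+cordycepin. Probe A_30_P01029732, 15.4 kb away, read 3.9, 3.91, 4.84 and 4.96 in DMSO, 3.14, 3.85, 5.26 and 5.06 in cordycepin, 4.48, 3.82, 4.61 and 4.78 in LPS+DMSO, and 9.56, 9.96, 9.98 and 10.23 in LPS+cordycepin. Probe A_30_P01028465, 15.5 kb away, read 4.07, 4.2, 4.56 and 4.61 in DMSO, 4.53, 4.81, 4.28 and 3.35 in cordycepin, 3.71, 4.17, 3.55 and 2.66 in LPS+DMSO, and 9.12, 9.54, 9.57 and 9.82 in LPS+cordycepin. In each probe all 4 LPS+cordycepin arrays lay above the other 12, which overlapped with each other. Against LPS+DMSO, A_30_P01027147 rose by 4.70 ± 0.37. A_30_P01029732 and A_30_P01028465 did not clear the background in LPS+DMSO on any array and were at least 25.6-fold and 19.7-fold higher. The Btg2 mRNA probe rose by 3.66 with LPS, and changed by -0.86 with cordycepin under LPS, which is under 2-fold.

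Probes of the other neighbours with large LPS rises followed. Isg15, a ubiquitin-like protein induced by interferon, rose by 3.03 with LPS, and 6 of its 7 probes were too dim to be tested, while A_30_P01029969 changed by 0.45 with LPS and 0.07 with cordycepin under LPS. Plk3, a polo-like kinase, rose by 2.39 and its 2 tested probes changed by -0.70 and -0.72. Both lie within 193 bases of a probe of the noncoding transcript NR_024078 of Btbd19, which changed by -0.74 with LPS. Zc3h12c, a zinc finger protein, rose by 1.55, and the 1 tested probe changed by 0.65 with LPS and -1.07 with cordycepin under LPS (adjusted p = 0.0753). All 5 tested probes next to 4930453N24Rik rose with cordycepin under LPS, by 1.14 to 1.45, and none was called with LPS.

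Rab25, a small GTPase, and Irf2bp2, a corepressor, were among the neighbours that fell with LPS. The 4 Rab25 probes rose with cordycepin by 1.35 to 2.55, and its mRNA probe also rose, by 2.86 with cordycepin and 3.24 under LPS. The 4 Irf2bp2 probes rose with cordycepin by 1.23 to 3.29, while its mRNA probe changed by -0.42.

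The interaction asks whether the LPS response differed between cordycepin and DMSO. It was called for 8 of the 877 probes, 5 higher and 3 lower with cordycepin, or 0.57% and 0.342%, where the background was 0.194% and 0.148%, or 0.343% for both directions. The difference in LPS response was 1.17 ± 0.21 for Nucks1 A_30_P01024020 (adjusted p = 0.019, limma) and -1.73 ± 0.27 for 4930562C15Rik A_30_P01019478 (0.011), both above background on all 16 arrays. It was 4.33 ± 0.52 for Btg2 A_30_P01027147 (0.00104), which was above background on 2 DMSO, 3 cordycepin and 3 LPS+DMSO arrays. The other 5 had at least 1 condition above background on no array. For these the lowest signal well above background was put in for that condition where it was a single one. The result is a bound only where every other condition cleared the background on all 4 arrays, as for Plekho2 A_30_P01024094 (0.000357), at -2.31 or lower. Btg2 A_30_P01029732 (0.000328) came to 4.75, with 2 DMSO and 1 cordycepin arrays above background, and Cyb5d1 A_30_P01029689 (0.0475) to 1.16, and neither is a bound. Mrpl39 A_30_P01017643 (0.0194) came to -0.83, under 2-fold and also no bound, with 2 cordycepin arrays above background. Its call rests on signals below background. For Btg2 A_30_P01028465 (8.47e-06), which cleared the background in LPS+cordycepin alone, no limit can be given. The Cyb5d1 probe was above background on 3 DMSO arrays but not on any of LPS+DMSO, and was at least 5.4-fold higher with cordycepin under LPS. With the culture day as a block 13 were called, 8 higher and 5 lower, including these 8. Calls that alternatives ended included those of Cyb5d1 and Mrpl39 after quantile normalization (adjusted p = 0.0603 and 0.24, limma), and of Nucks1 with the offset correction (0.152) and in the value table (0.137). Leaving out 1 replicate or array at a time, 20 ways in all, ended the Cyb5d1 call in 16, that of Nucks1 in 8, Mrpl39 in 6, 4930562C15Rik in 3 and A_30_P01027147 in 2. The count was 5 without replicate 1, 3 without replicate 3, 4 without replicate 4 and 5 without cordycepin replicate 2.

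A pair of gene lists gives the setting. Of 79 tested LPS primary response genes, such as cytokines and immediate early genes, 67 rose with LPS (median log2 change 2.86), and 22 fell with cordycepin under LPS (median -0.86), with none raised. Of the 2815 probes, 10 lay next to 3 of these genes, Btg2, Egr3 and Sod2, and the 3 that were tested are those of Btg2. Of 30 tested genes for 3' end processing and termination, none was called with LPS and 2 fell with cordycepin, both alone and under LPS: Papolg, a poly(A) polymerase (-1.73 and -1.74), and Scaf8, which binds the tail of RNA polymerase (-1.57 and -1.38).

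Sequence features of the raised and the other probes were counted, with no test. The median GC content was 43.3% in the 329 probes raised in at least 1 cordycepin comparison and 45.0% in the tested probes raised in neither. The hexamers AATAAA or ATTAAA, searched on the printed strand, stood in 6.38% of the raised probes (21), 7.3% of the tested others, 6.22% of all 2815, 6.33% of the intergenic probes without an upstream gene and 17.3% of NM_ probes, and a match is only a match of letters.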

How the data were processed

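RNA from RAW 264.7 cells was labelled with Cy3 and hybridised to 16 Agilent 1-colour arrays, 4 per condition. The authors deposited scanner files made with Agilent Feature Extraction 10.10.1.1 (submitters' processing notes), whose intensity columns give background-corrected processed signals and raw means, not normalized between arrays. They also deposited a value table of log2 values normalized between arrays, by a method not given in the sources used here, which served as an alternative. All columns were mapped to samples.

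Outlier spots were left out, spots of a probe averaged, and log2 processed intensity set to each array's 75th percentile, taken over the 18064 probes that cleared the background on every array. Arrays held 21999 to 30362 spots well above background of 59305, and precision rests on the number of arrays. Python 3.11.15 read the files, and limma 3.58.1 in R 4.3.3 fitted the 4 condition means to all 21597 probes kept. Simulated data for LPS+cordycepin against LPS+DMSO held 21597 probes with independent noise, of which 200 were given changes larger than 2-fold. Of these, 190 were recovered (95%), with 4 false calls. This share does not carry over to changes near 2-fold, or to the real arrays, whose residuals are correlated within a slide. Positions and sequences are those of the array files, on mm9, and 564 of 569 neighbours were named by RefSeq accession.

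Per comparison, the rule for naming took the 5 largest rises and falls, 1 per neighbour, and the 3 largest bounds. Rises and falls had to be called, above background on all arrays compared and changed alike on all 4 days. The rule also took probes next to the 5 neighbours with the largest LPS rise or next to listed LPS genes. Not every change picked in this way is described in the text. Probes chosen outside this rule (all called in the interaction, loci with most probes, neighbours with most raised probes, probes of the remaining neighbours that fell with LPS) were chosen after their values were seen. The intergenic probes and gene lists were chosen with earlier results of these data known. A few genes are not reported here.

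Replicates were collected on different days, as the series' design text states, so a replicate number was taken as a culture day that pairs the samples. Between arrays that share a number, residuals had a mean correlation of 0.19 (-0.073 to 0.423, over 0.1 in 20 of 24 pairs), which was 0.17 between arrays of a slide with different numbers and -0.18 between slides, so these correlations do not tell a day apart from its slide. Replicates 1 and 2 were on slide 1, and 3 and 4 on slide 2. Alternatives were other scalings, background correction, filters, blocks, thresholds, tests, distances and leaving out arrays.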

Additional observations from a re-analysis of the deposited data

Results flagged for a closer look

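In 7 of the 152 sets of 4 arrays examined for the named probes (4.61%), 1 array stood apart from the other 3 by more than the 95% limit for a single outlying value, which chance gives in about 1 in 20 sets. The values, on the scaled log2 scale, were 10.70 for 4930562C15Rik A_30_P01019478 on LPS+DMSO replicate 2 (others 11.15 to 11.22), 4.62 for Fbrs A_30_P01020532 on DMSO replicate 4 (5.60 to 5.76), and 2.53 for Rps20 A_30_P01022565 on DMSO replicate 3 (4.09 to 4.18). They were 6.82 for Zc3h12c A_30_P01025410 on cordycepin replicate 1 (7.84 to 8.04) and 9.55 for Crebrf A_30_P01027115 on LPS+cordycepin replicate 4 (9.09 to 9.12). They were 6.83 for Btg1 A_30_P01027893 on DMSO replicate 2 (7.48 to 7.61) and 3.21 for Ywhag A_30_P01029259 on DMSO replicate 3 (3.99 to 4.14).

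The LPS response with cordycepin differed from that with DMSO, by the interaction test in limma, for 8 probes. The differences on the log2 scale, as fitted, were 1.17 for Nucks1 A_30_P01024020, 4.33, 6.11 and 5.58 for Btg2 A_30_P01027147, A_30_P01028465 and A_30_P01029732, and 2.41 for Cyb5d1 A_30_P01029689. They were -1.73 for 4930562C15Rik A_30_P01019478, -1.46 for Mrpl39 A_30_P01017643 and -3.37 for Plekho2 A_30_P01024094. For A_30_P01028465, A_30_P01029732, A_30_P01029689, A_30_P01017643 and A_30_P01024094 the fitted sizes use signals of conditions that were above background on no array and are not measured sizes. With the lowest signal well above background put in for DMSO, the Mrpl39 difference was -0.83, which is under 2-fold. That value is no bound, since the probe was above background on only 2 of the 4 cordycepin arrays.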

How the results depend on the processing

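The probes called were 73 with LPS, 269 with cordycepin, 319 with cordycepin under LPS and 8 in the interaction. In that order the counts were 12, 111, 131 and 5 with offset background correction, which shrinks changes of dim probes by construction, 23, 170, 196 and 4 in the deposited value table, 21, 56, 87 and 2 over probes above background on all 16 arrays, and 30, 100, 127 and 5 with the brightest probe per gene name. They were 40, 155, 189 and 1 with the upstream probe within 10 kb and 21, 52, 73 and 1 within 5 kb. Scaling to spiked-in controls gave 36 with LPS and 4 in the interaction, slide 1 alone 43 and 3, no filter 4 in the interaction and an adjusted p under 0.01 also 4. No minimum fold gave 147 with LPS, and the methods' t-test after Benjamini-Hochberg adjustment 42. The interaction gave 13 with the replicate block and 14 with the slide as a block, and the replicate block changed no other call of a named probe. Leaving out a replicate or an array gave 51 to 82 with LPS, 231 to 275 with cordycepin, 288 to 329 with cordycepin under LPS and 3 to 9 in the interaction. The median interaction over the 877 probes turned from 0.12 to -0.10 with scaling to spiked-in controls, which moved the median of all probes by -0.21. No call of a named probe changed direction in these alternatives. Where not stated, the cause was not tested.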
